A study of Mus musculus with 15 samples.

Results

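Collagen chain genes code for the alpha chains that wind together into collagen, the main structural protein of the extracellular matrix. In bulk RNA of mouse melanoma grafts they were taken as all genes named Col, a number, a and a number that reached at least 1 TPM (an abundance per transcript length, scaled to the same total in each library) in at least 3 of 15 libraries. Of 23420 gene symbols in the table, 44 were collagen chain genes and 29 of these passed, among 13592 genes that passed the same filter. They comprised 9 of 11 fibrillar chains, 6 of 8 basement membrane chains, both epidermal chains (2 of 2), 3 of 6 beaded filament chains, 4 of 9 fibril-associated chains, 2 of 3 network chains, 2 of 3 other transmembrane chains and 1 of 2 remaining chains. At the edge of the filter, Col9a3 reached 1 TPM in 3 libraries and Col17a1 in 4, whereas Col6a5 did so in 2 and Col6a6 and Col11a2 in 1 each. The 4 libraries that carried Col17a1 over the filter were the 3 of triple therapy and library 3 of UV2 anti-PD-1, so its presence among the 29 is tied to those groups.

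The grafts were grown from either of 2 mouse melanoma cell lines, UV2 (D3UV2, carrying putative neoantigens made by UVB light) and parental (D4M.3A.3), with 1000000 cells placed in each flank of female C57BL/6 mice aged 8 weeks. The 5 groups of 3 libraries were UV2 with anti-PD-1 (an antibody against the T cell checkpoint receptor PD-1), UV2 with isotype control antibody, parental with triple therapy, parental with anti-PD-1 and parental with isotype control antibody. Antibody and imiquimod or lotion were given on days 8, 10 and 12, the laser was used on days 8 and 12, and left-flank tumors were taken on day 13. Triple therapy is labelled in the sample characteristics as anti-PD-1, imiquimod (an activator of Toll-like receptor signalling applied as a cream) and ablative fractional photothermolysis (a laser that drills small columns through skin), but the treatment protocol lists isotype antibody where the characteristics list anti-PD-1, and which was given is unknown. Each line stands for its label by a lone cell line, so line and any other property of that line cannot be told apart, and whether libraries within a group stem from different mice is not labelled. The p-values therefore measure only the spread between these samples, which may be technical.

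Fibrillar collagens, led by types I and III, form the tensile fibrils of skin and of tumor stroma and are made mainly by fibroblasts. Type IV collagen is the sheet-forming network of basement membranes, to which types XV and XVIII attach, and it surrounds vessels, nerves, fat cells, muscle fibres and epithelia. Types VII and XVII anchor the epidermis to the dermis. Each chain must be hydroxylated and folded before secretion, trimmed and crosslinked outside the cell, and is read by integrins and other receptors.

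Libraries within a group were uneven in markers of other cells. The summed level of 10 keratinocyte markers was 17500, 130.1 and 1258 TPM in triple therapy libraries 1, 2 and 3, against 7.85 to 10.3 TPM in parental isotype libraries. In UV2 anti-PD-1 it was 10.2, 9.21 and 352 TPM, so library 3 stood apart, with Krt14 (basal epidermal keratin) at 69.5 TPM while it was listed at 0 in the other two. Skeletal muscle markers summed to 797 TPM in parental isotype library 3, against 19.5 and 15.7 TPM in libraries 1 and 2, and to 618 TPM in UV2 isotype library 3, against 8.46 and 12.8 TPM. Adipocyte markers summed to 454 TPM in parental isotype library 3, against 41.4 and 23.2 TPM, and to 773 TPM in parental anti-PD-1 library 1, against 10.6 and 16.5 TPM. Of the melanocyte lineage markers, Mitf lay between 5.28 and 14.2 TPM and Tyr between 1.49 and 4.57 TPM, and Tyrp1 was listed at 0 in 11 of 15 libraries. The defining pigment genes of the labelled melanoma were therefore low or absent. Because the tissue is bulk, fewer cells of a type and less RNA per cell cannot be told apart, nor can tumor cells and host cells as the source of a collagen transcript.

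Collagen transcripts summed to between 3213 and 30624 TPM per library (median 7288), that is 0.321% to 3.06% of all TPM. The sum was 8463, 11756 and 3213 TPM in UV2 anti-PD-1, 7223, 3244 and 8953 TPM in UV2 isotype, 30624, 8030 and 14074 TPM in triple therapy, 10788, 4966 and 5200 TPM in parental anti-PD-1, and 7002, 7288 and 5016 TPM in parental isotype. Every triple therapy library lay above every parental isotype library, while the other groups overlapped one another. Triple therapy library 1 held the highest value of 20 of the 29 genes, and the lowest values lay mostly in UV2 anti-PD-1 library 3 (10 genes) and UV2 isotype library 2 (7 genes).

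**Figure D1:**
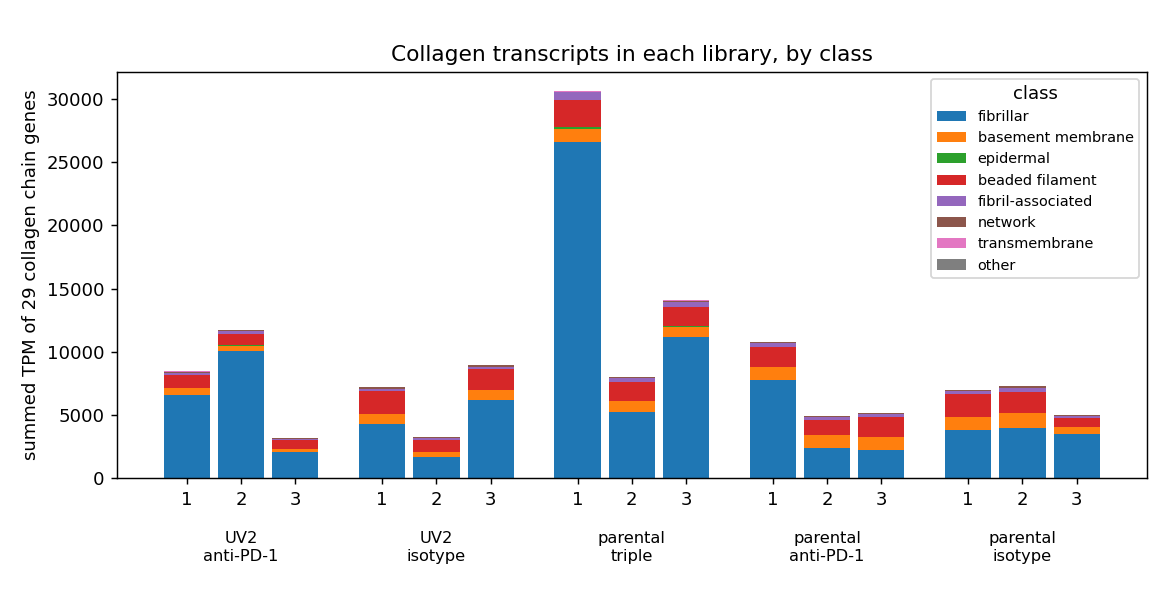
Summed TPM of the 29 collagen chain genes in each library (bars), split by class of chain, for the 5 groups of 3 libraries. Triple therapy library 1 reaches 30624 TPM, 86.9% of it fibrillar, and UV2 anti-PD-1 library 3 is lowest at 3213 TPM.

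TPM is a level per transcript length, so levels can be ordered between genes. Col3a1, the chain of type III collagen, had the highest median (1731 TPM, range 759 to 9042), followed by Col1a1 (1023 TPM, range 312 to 8288) and Col1a2 (850 TPM, range 246 to 7768), the chains of type I collagen. These 3 genes made up 33.5% to 82.0% of collagen TPM, and in triple therapy library 1 Col3a1 ranked 2 and Col1a1 ranked 5 among all genes. Next came Col6a1 (median 663 TPM), Col18a1 (425 TPM), Col6a2 (384 TPM), Col5a2 (315 TPM) and Col6a3 (269 TPM), whose ranges over libraries overlapped those of their neighbours. Below 2 TPM by median lay Col24a1, Col28a1, Col13a1, Col9a3 and Col17a1. The widest spreads between the lowest and highest library were those of Col14a1 (123-fold), Col8a2 (95.6-fold), Col24a1 (58.0-fold) and Col7a1 (47.7-fold), and the narrowest that of Col6a1 (2.80-fold). Col17a1 was listed at 0 in some libraries, so no fold is given.

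**Figure D2:**
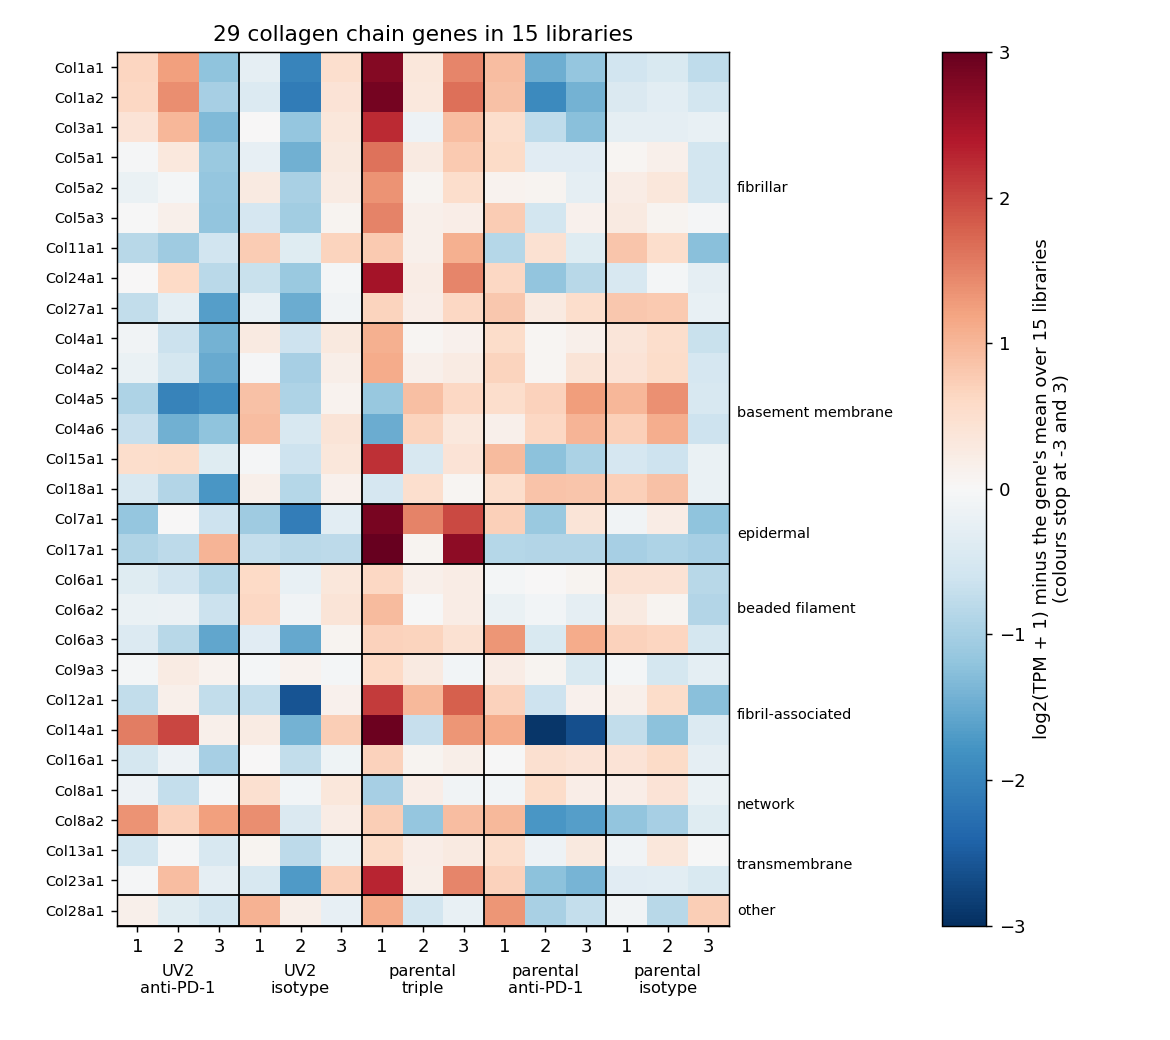
Each row is a collagen chain gene and each column a library; colour is log2(TPM + 1) minus the gene's mean over 15 libraries, red above and blue below. Col1a1, Col1a2, Col3a1, Col7a1 and Col17a1 are reddest in triple therapy library 1, and Col4a5, Col4a6 and Col18a1 are blue in all 3 UV2 anti-PD-1 libraries and in triple therapy library 1.

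Some chains that share a collagen molecule kept close proportions across libraries. The ratio of Col1a1 to Col1a2 lay between 0.991 and 1.57, Col4a1 to Col4a2 between 1.32 and 2.005, and Col6a1 to Col6a2 between 1.16 and 1.98. Others did not: Col6a3 to Col6a1, chains of the same beaded filament, ran from 0.163 to 1.06, and Col1a1 to Col18a1, chains of different classes, from 0.629 to 30.01. Several collagen chain genes are also neighbours in the genome (GENCODE M21, build GRCm38). Col4a1 and Col4a2 lie head to head on chromosome 8, with annotated spans that overlap (gap of -22 bases), and Col4a6 and Col4a5 lie head to head on chromosome X, 1308 bases apart. Col6a2 and Col6a1 are 85161 bases apart on chromosome 10, and Col3a1 and Col5a2 are 24614 bases apart on chromosome 1. These ratios are descriptions of 15 libraries that share their processing.

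The fibrillar share of collagen TPM was 77.9%, 85.6% and 64.2% in UV2 anti-PD-1, 59.7%, 51.2% and 69.3% in UV2 isotype, 86.9%, 65.1% and 79.5% in triple therapy, 71.9%, 47.7% and 42.6% in parental anti-PD-1, and 54.6%, 54.9% and 69.4% in parental isotype. The basement membrane share was 6.83%, 3.73% and 7.49% in UV2 anti-PD-1 against 9.82%, 20.9% and 20.8% in parental anti-PD-1, groups that did not overlap. It was 11.12%, 12.5% and 9.02% in UV2 isotype, which did not overlap UV2 anti-PD-1 either. In triple therapy it was 3.26%, 11.20% and 5.55%, against 15.03%, 16.2% and 11.08% in parental isotype, and the highest triple therapy library exceeded the lowest isotype library.

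Promoter sequence was read as the 250 bases before the RefSeq transcript start in build GRCm38.p6. It is printed for some basement membrane and fibrillar chains. Other chains of the comparisons, such as Col27a1, Col7a1 and Col17a1, are not printed. Of the 29 genes, 24 had a window, with 26 windows in all. Capitals mark matches, on either strand, to the CCAAT box (CCAAT or ATTGG), the TATA box (TATAAA or TTTATA) and the GC box (GGGCGG or CCGCCC), and none of the matches printed overlapped another. Col18a1, Col4a5 and Col4a6 are basement membrane chains that were lower in UV2 anti-PD-1 grafts, and Col1a2 and Col3a1 are fibrillar chains that were higher in every triple therapy library than in any parental isotype library. The windows lie at chr10:77166531-77166780 (minus strand), chrX:141475169-141475418 (plus), chrX:141474077-141474326 (minus), chr6:4505368-4505617 (plus) and chr1:45311288-45311537 (plus).
Col18a1: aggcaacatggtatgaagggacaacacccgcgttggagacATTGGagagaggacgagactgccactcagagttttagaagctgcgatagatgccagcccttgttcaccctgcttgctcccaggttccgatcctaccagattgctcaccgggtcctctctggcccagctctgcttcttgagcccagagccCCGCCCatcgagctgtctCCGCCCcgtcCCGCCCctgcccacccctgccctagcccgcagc
Col4a5: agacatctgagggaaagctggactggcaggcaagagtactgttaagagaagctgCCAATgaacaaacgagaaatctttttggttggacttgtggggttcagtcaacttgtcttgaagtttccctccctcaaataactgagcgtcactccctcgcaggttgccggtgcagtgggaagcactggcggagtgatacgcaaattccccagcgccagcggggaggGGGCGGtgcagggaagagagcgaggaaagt
Col4a6: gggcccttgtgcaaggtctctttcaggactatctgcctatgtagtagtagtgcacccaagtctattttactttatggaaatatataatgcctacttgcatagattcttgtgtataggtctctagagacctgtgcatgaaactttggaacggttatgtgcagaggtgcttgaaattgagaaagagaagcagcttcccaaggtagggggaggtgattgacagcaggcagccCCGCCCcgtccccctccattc
Col1a2: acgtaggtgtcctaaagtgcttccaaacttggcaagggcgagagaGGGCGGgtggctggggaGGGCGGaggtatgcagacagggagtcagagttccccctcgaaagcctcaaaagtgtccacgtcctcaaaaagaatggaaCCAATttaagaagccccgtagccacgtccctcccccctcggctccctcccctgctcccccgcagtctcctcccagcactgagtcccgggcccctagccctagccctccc
Col3a1: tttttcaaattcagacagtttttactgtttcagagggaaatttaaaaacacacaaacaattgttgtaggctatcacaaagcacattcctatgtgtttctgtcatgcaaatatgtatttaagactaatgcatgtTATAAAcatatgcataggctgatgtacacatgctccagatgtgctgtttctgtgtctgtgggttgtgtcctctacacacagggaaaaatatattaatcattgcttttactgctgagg
The Col18a1 window held 1 CCAAT box and 3 GC boxes, all read on the other strand, and the window of a further Col18a1 start (chr10:77113706-77113955) held none of the motifs. Col4a5 held 1 CCAAT box and 1 GC box, and its head-to-head neighbour Col4a6 held 1 GC box 21 to 16 bases before its start. Col1a2 held a CCAAT box 109 to 105 bases before its start and 2 GC boxes, whereas Col3a1 held a TATA box 117 to 112 bases before its start and no GC box. Over the 26 windows of collagen chain genes, 16 (61.5%) held a GC box, against 32.7% of all 32851 windows. A CCAAT box was in 10 (38.5%) against 33.8% of all windows, and a TATA box in 3 (11.5%) against 12.4%. A match of letters is a description and not a binding site.

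The comparison of UV2 with parental grafts asks how the line with added putative neoantigens differs. Under anti-PD-1, 3 of 6 basement membrane chains were lower in UV2 grafts: Col4a5 and Col4a6, which join in a type IV network of skin and smooth muscle, and Col18a1, the core chain of a basement membrane heparan sulfate proteoglycan. Col27a1, a fibrillar chain first known from cartilage, Col6a3, the longest chain of beaded filaments, and Col16a1, a fibril-associated chain, were also lower. No chain was higher. These were calls at an adjusted p under 0.05 from limma on log2(TPM + 1), adjusted by Benjamini-Hochberg over all 13592 genes. The background was high: 26.4% of all genes were called in this comparison, 17.1% as lower and 9.31% as higher, so 6 of 29 (20.7%) is near the share over all genes. Groups did not overlap, with UV2 lower, for 8 of 29 chains (27.6%) against 34.3% of all genes. The median log2 fold change was -0.47 over the 29 chains, -1.41 over the 6 basement membrane chains and -0.23 over the 9 fibrillar chains, against -0.21 over all genes. The fibrillar median turned positive after median-of-ratios scaling (0.04), without UV2 anti-PD-1 library 3 (0.19) and without parental anti-PD-1 library 1 (0.07), while the basement membrane median stayed between -1.66 and -1.07 under both scalings and without any 1 library.

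Col4a5 was at 7.10, 2.86 and 3.25 TPM in UV2 anti-PD-1 and at 21.3, 24.0 and 35.8 TPM in parental anti-PD-1. All UV2 libraries lay below all parental ones, a log2 fold change of -2.42 ± 0.61 (SE, n = 3 libraries each, limma adjusted p = 0.0217). Its neighbour Col4a6 was at 1.98, 0.75 and 1.08 TPM in UV2 anti-PD-1 and at 4.31, 6.40 and 8.70 TPM in parental anti-PD-1, again without overlap (log2 fold change -1.71 ± 0.57, limma adjusted p = 0.0454). Col18a1, whose C-terminal fragment is endostatin, was at 279, 213 and 116 TPM in UV2 anti-PD-1, against 564, 708 and 693 TPM in parental anti-PD-1. The groups did not overlap, and the log2 fold change was -1.77 ± 0.38 (limma adjusted p = 0.0151). Col4a1 and Col4a2, the common type IV pair of all basement membranes, did not pass the test. Col4a1 was at 156, 106 and 62.4 TPM in UV2 anti-PD-1 and at 246, 176 and 188 TPM in parental anti-PD-1 (log2 fold change -0.98 ± 0.40, limma adjusted p = 0.0802), and Col4a2 had a log2 fold change of -1.11 ± 0.41 (adjusted p = 0.0585). Their groups did not overlap either. Col15a1, the other basement membrane chain that carries an endostatin-like fragment, was at 38.9, 40.0 and 20.9 TPM in UV2 anti-PD-1 and at 52.9, 10.9 and 13.5 TPM in parental anti-PD-1, with overlap (log2 fold change 0.65 ± 0.63).

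Outside the basement membrane, Col27a1 was at 9.95, 14.03 and 4.86 TPM in UV2 anti-PD-1 and at 30.8, 20.9 and 25.4 TPM in parental anti-PD-1. No UV2 library reached a parental one (log2 fold change -1.42 ± 0.41, limma adjusted p = 0.0309). Col16a1 was at 98.5, 127 and 70.9 TPM in UV2 anti-PD-1 and at 139.6, 197 and 187 TPM in parental anti-PD-1, a smaller gap that still did not overlap (log2 fold change -0.84 ± 0.28, limma adjusted p = 0.0462). Col6a3 was at 189, 141 and 85.5 TPM in UV2 anti-PD-1 and at 635, 186 and 545 TPM in parental anti-PD-1. Here UV2 library 1 lay just above parental library 2 (log2 fold change -1.60 ± 0.51, limma adjusted p = 0.0397). Its filament partners Col6a1 (log2 fold change -0.61 ± 0.31, limma adjusted p = 0.14) and Col6a2 (-0.16 ± 0.30, adjusted p = 0.69) were not called. Even so, Col6a1 was lower without overlap, at 485, 418 and 344 TPM in UV2 anti-PD-1 against 598, 629 and 663 TPM in parental anti-PD-1. The ratio of Col6a3 to Col6a1 was 0.390, 0.338 and 0.249 in UV2 anti-PD-1, against 1.06, 0.295 and 0.823 in parental anti-PD-1.

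Taking the mean of the isotype and anti-PD-1 differences, UV2 grafts had 5 chains lower (17.2%, against 19.6% of all genes) and 1 higher (3.45%, against 13.4%), while 33.0% of all genes were called in either direction, so neither share stands above the background. The lower chains were Col18a1 (log2 fold change -1.21 ± 0.27, limma adjusted p = 0.00719), Col27a1 (-1.25 ± 0.29, adjusted p = 0.00882), Col4a5 (-1.52 ± 0.43, adjusted p = 0.02), Col6a3 (-1.23 ± 0.36, adjusted p = 0.0219) and Col16a1 (-0.68 ± 0.20, adjusted p = 0.0224). This comparison includes the anti-PD-1 groups described above and is not independent of them. The higher chain was Col8a2, a short-chain collagen of networks such as Descemet's membrane of the cornea (log2 fold change 1.57 ± 0.51, limma adjusted p = 0.0343). It was at 8.23, 4.92 and 7.5 TPM in UV2 anti-PD-1 and 8.60, 1.70 and 3.27 TPM in UV2 isotype, against 6.13, 0.09 and 0.16 TPM in parental anti-PD-1 and 0.62, 0.83 and 1.85 TPM in parental isotype. Parental anti-PD-1 library 1 lay within the UV2 range and parental isotype library 3 lay just above UV2 isotype library 2. Triple therapy libraries, which are not in this comparison, were at 5.12, 0.63 and 5.96 TPM. Pooled over both treatments, UV2 and parental libraries overlapped for every chain (0 of 29 without overlap in either direction, against 4.46% of all genes higher and 5.22% lower).

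**Figure D3:**
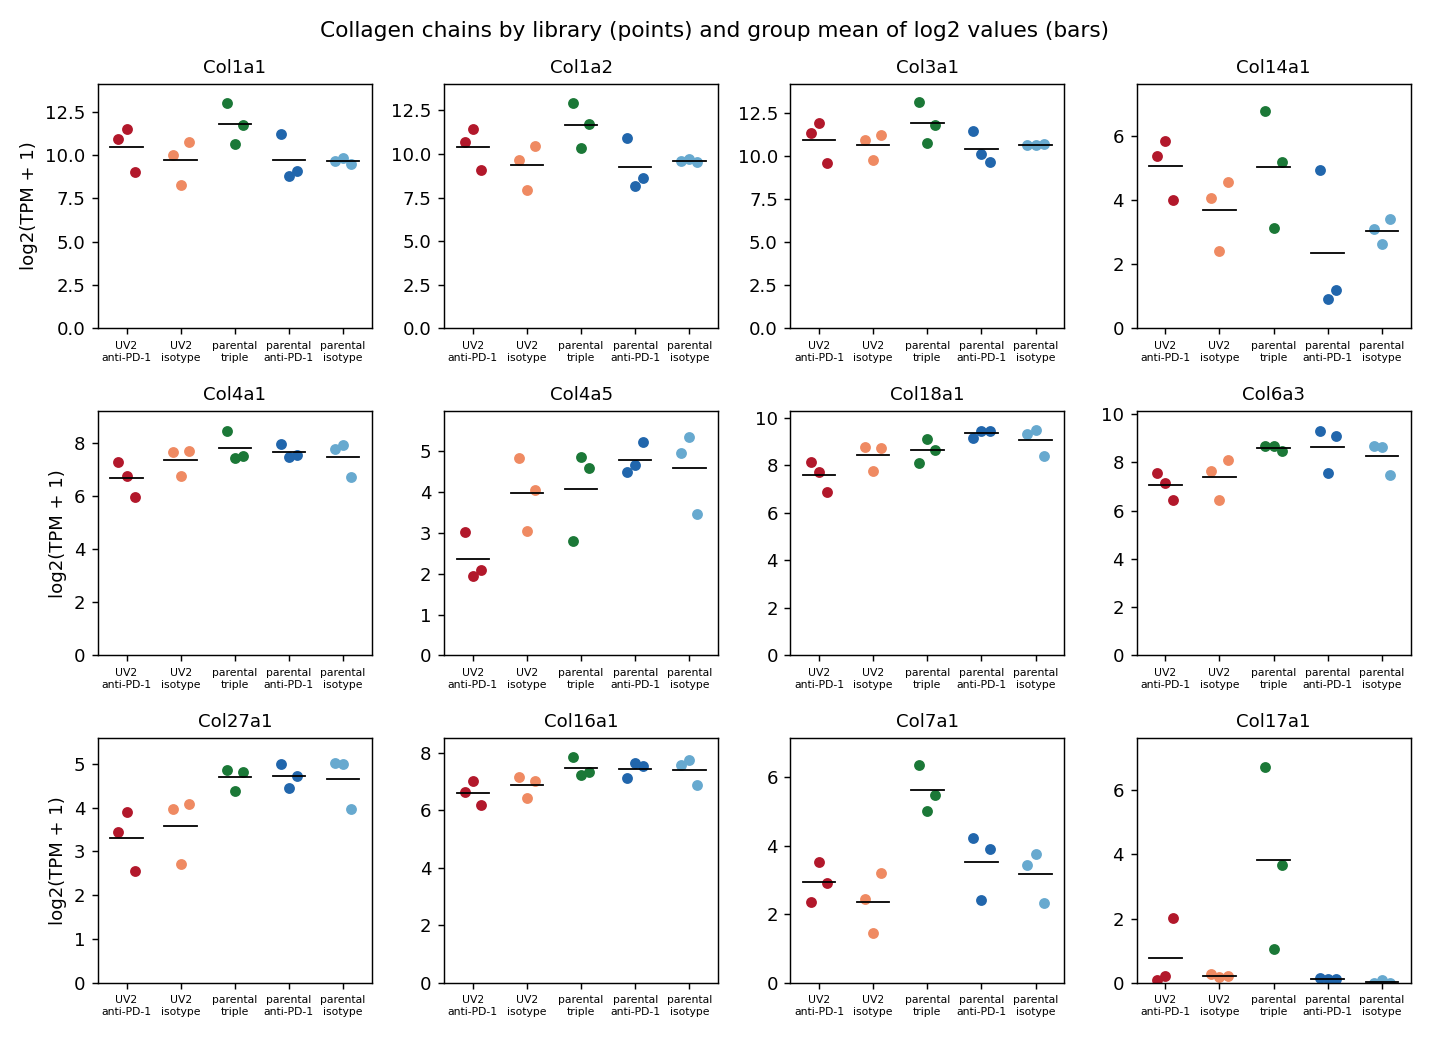
Levels of 12 collagen chain genes in each library (points, log2(TPM + 1)) with the mean of each group (bars), 3 libraries a group. Col4a5 and Col18a1 lie lowest in UV2 anti-PD-1, Col7a1 lies highest in triple therapy, and Col17a1 is near 0 except in triple therapy and 1 UV2 anti-PD-1 library.

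The main fibrillar chains showed no called difference between the lines. Col1a1 was at 1932, 2899.5 and 527 TPM in UV2 anti-PD-1 and 1023, 312 and 1733 TPM in UV2 isotype, against 2337, 445 and 544 TPM in parental anti-PD-1 and 817, 894 and 722 TPM in parental isotype. The groups overlapped throughout, and the mean log2 fold change was 0.41 ± 0.58 (limma adjusted p = 0.596). Col1a2 (0.44 ± 0.60), Col3a1 (0.25 ± 0.48), Col5a1 (-0.29 ± 0.34) and Col5a2 (-0.31 ± 0.29), which starts and sizes fibrils together with Col5a1, were no clearer. Col14a1, a fibril-associated chain of mature stroma, had the largest positive value under anti-PD-1. It was at 40.5, 56.2 and 14.9 TPM in UV2 anti-PD-1 and at 29.7, 0.88 and 1.3 TPM in parental anti-PD-1, where library 1 overlapped the UV2 libraries (log2 fold change 2.72 ± 1.06, limma adjusted p = 0.069). Col12a1, its close relative in dense stroma, was at 33.2, 62.1 and 32.8 TPM in UV2 anti-PD-1 and at 90.5, 35.7 and 60.7 TPM in parental anti-PD-1 (log2 fold change -0.50 ± 0.64). The ratio of Col14a1 to Col12a1 was 1.22, 0.905 and 0.454 in UV2 anti-PD-1 and 0.470, 0.508 and 0.371 in UV2 isotype, against 0.328, 0.0247 and 0.0214 in parental anti-PD-1 and 0.121, 0.0622 and 0.425 in parental isotype.

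The calls under anti-PD-1 depended on single libraries. Without UV2 anti-PD-1 library 3, or without parental anti-PD-1 library 3, none of the 29 chains was called, and only 9 of 13592 genes were called in each case. The log2 fold changes of Col18a1 were then -1.41 (limma adjusted p = 0.0717) and -1.72 (0.0764), those of Col4a5 -2.29 (0.0931) and -2.21 (0.098), and those of Col27a1 -1.04 (0.14) and -1.42 (0.104). Those of Col4a6 were -1.67 (0.142) and -1.502 (0.149), of Col6a3 -1.29 (0.159) and -1.38 (0.138), and of Col16a1 -0.62 (0.191) and -0.78 (0.14). Without UV2 anti-PD-1 library 2, calls were also lost for Col4a5 (-2.22, adjusted p = 0.0578), Col4a6 (-1.54, 0.115) and Col6a3 (-1.65, 0.0787), and without library 1 for Col16a1 (-0.86, 0.0648). Without parental anti-PD-1 library 1, they were lost for Col4a6 (-1.94, 0.0725), Col6a3 (-1.27, 0.126), Col16a1 (-0.99, 0.0631) and Col27a1 (-1.28, 0.0882), and without library 2 for Col4a6 (-1.70, 0.0768) and Col16a1 (-0.74, 0.101). In the mean over both treatments, Col18a1 and Col27a1 were called under all 21 alternatives, with adjusted p-values up to 0.023 and 0.0277. Col4a5 was called under 17 of 21, Col16a1 under 16, Col6a3 under 15 and Col8a2 under 13. The count of called chains was 3 without UV2 anti-PD-1 library 3 or UV2 isotype library 2, 2 without parental anti-PD-1 library 3 or parental isotype library 1 or 2, and 10 without parental isotype library 3.

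TPM is relative to the rest of a library, and here the centre itself moved. The median gene had a log2 fold change of -0.21 in UV2 against parental anti-PD-1, which became 0.035 when libraries were scaled by the median of ratios. All-gene calls in that comparison were 1265 higher and 2321 lower on TPM, and 1951 higher and 1793 lower after scaling. Scaled in that way, Col18a1 (-1.497, limma adjusted p = 0.0109), Col4a5 (-2.19, 0.0186), Col27a1 (-1.17, 0.022), Col6a3 (-1.33, 0.0348) and Col4a6 (-1.54, 0.0497) kept their direction and their call, and Col16a1 did not pass (-0.57, 0.0862). Col8a2 (2.12, 0.0384) and Col14a1 (2.97, 0.0439) passed as higher after this scaling. In the mean comparison, all-gene calls were 1823 higher and 2661 lower on TPM, and 2449 higher and 2304 lower after scaling, while the same 6 chains were called either way. Macrophage and cartilage and bone marker sums did not overlap between the lines under anti-PD-1, whereas the fibroblast, endothelial, skeletal muscle and adipocyte sums did. The 5 macrophage markers in the table summed to 1049 to 1575 TPM in UV2 anti-PD-1 against 509.8 to 802 TPM in parental anti-PD-1, with 0 of 5 at 0. The 10 fibroblast markers summed to 1195 to 3088 TPM against 1267 to 1804 TPM, with none at 0, and endothelial markers to 103 to 243 TPM against 77.0 to 253 TPM. Of the fibroblast markers, 3 were called higher (Thy1, Mfap5 and Lum) and 1 lower (Pdgfra). Skeletal muscle markers summed to 14.2 to 1047 TPM against 288 to 510.1 TPM, and adipocyte markers to 94.9 to 402 TPM against 10.6 to 773 TPM, with up to 2 muscle markers at 0 in a UV2 library and up to 3 adipocyte markers at 0 in a parental one. The 8 cartilage and bone markers summed to 17.3 to 29.2 TPM in UV2 anti-PD-1 against 66.0 to 181 TPM in parental anti-PD-1, and to 29.2 to 49.5 TPM in UV2 isotype against 95.8 to 262 TPM in parental isotype, without overlap. Most of the parental sums was Dmp1, a bone matrix gene, at 39.79 to 167.5 TPM in parental anti-PD-1 and 81.3 to 235 TPM in parental isotype. The list did not move as a whole. Under anti-PD-1, 2 of the 8 markers were higher in UV2 without overlap, 1 was lower, and 4 had a higher mean in UV2. Under isotype, 1 was higher without overlap and 2 were lower. In parental anti-PD-1 libraries 4 to 5 of the 8 were at 0, and in UV2 anti-PD-1 libraries 1 to 2. Acan and Matn1, which define cartilage, were at most 0.21 and 0.26 TPM in any library. The part of these cells in the collagen values was not tested.

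**Figure D4:**
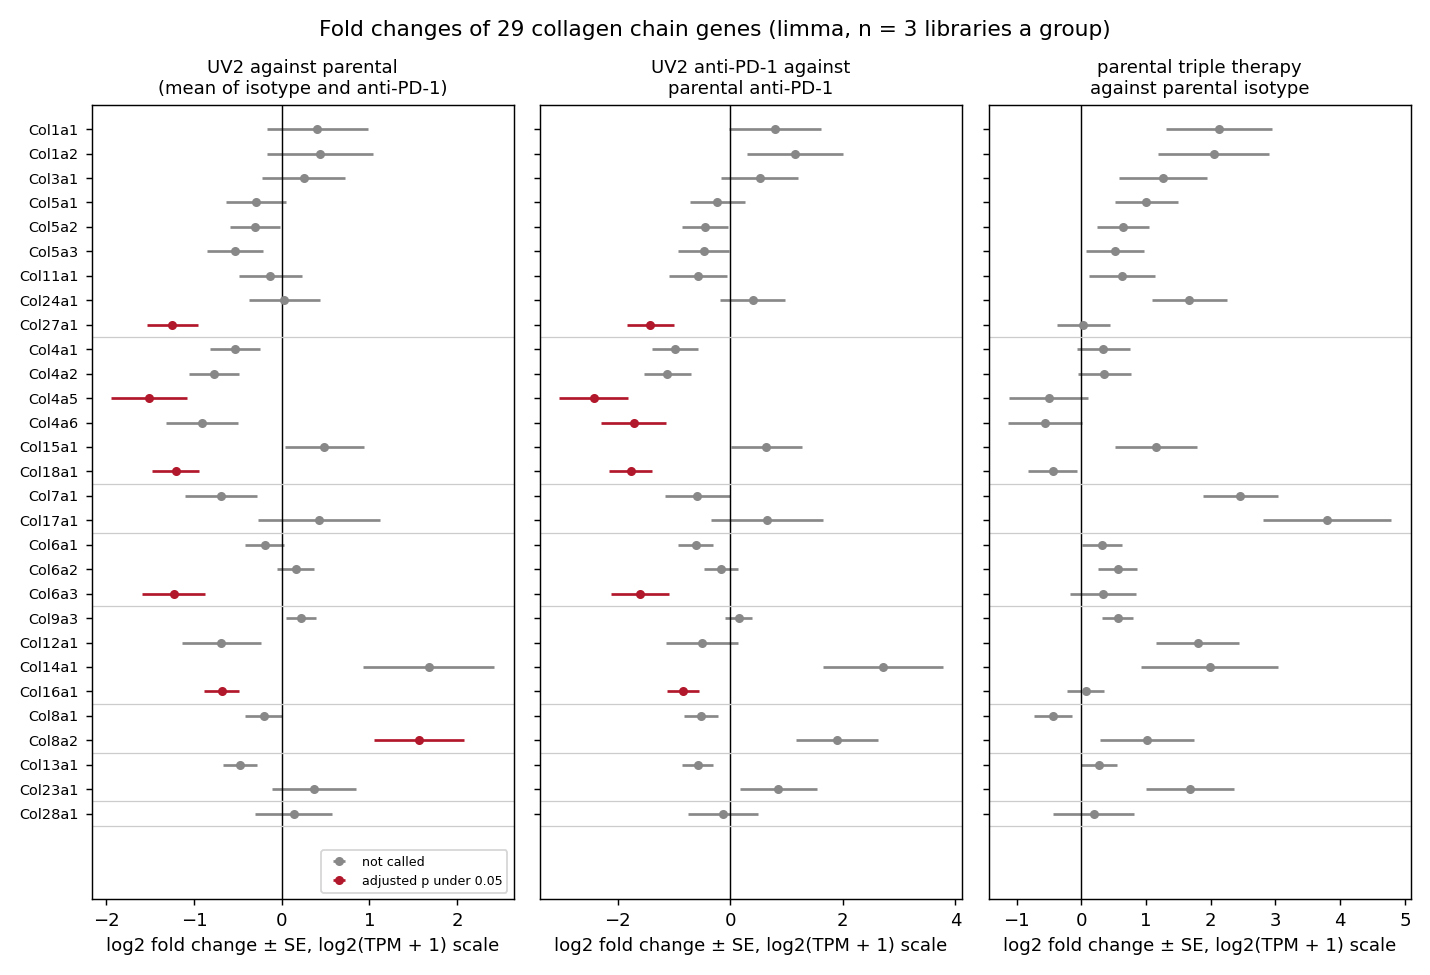
Log2 fold change with its standard error (limma, log2(TPM + 1) scale, n = 3 libraries a group) of each collagen chain gene in 3 comparisons; red marks an adjusted p under 0.05. In the UV2 comparisons the red genes include Col18a1 at -1.21 and -1.77, and in triple therapy no gene is red although Col17a1 reaches 3.80.

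Without checkpoint antibody, UV2 isotype against parental isotype gave no called chain (0 of 29, against 1.29% of all genes) and 1 at an unadjusted p under 0.05, Col27a1. It was at 14.6, 5.55 and 15.98 TPM in UV2 isotype and at 31.3, 30.7 and 14.8 TPM in parental isotype (log2 fold change -1.07 ± 0.41, limma adjusted p = 0.19). Groups did not overlap, with UV2 higher, for 1 chain (3.45%, against 10.4% of all genes), and with UV2 lower for 0 chains (against 9.15% of all genes). The chain was Col17a1, which was at 0.21, 0.14 and 0.15 TPM in UV2 isotype and at 0, 0.05 and 0 TPM in parental isotype. Col18a1 was at 434, 217 and 425 TPM in UV2 isotype and at 638, 717 and 340 TPM in parental isotype, with overlap (log2 fold change -0.65 ± 0.38). The largest positive value was that of Col8a2 (1.24 ± 0.72, adjusted p = 0.408).

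Anti-PD-1 changed no chain past the test in either line. In parental grafts, 0 of 29 chains were called (0.0% of all genes) and 0 had an unadjusted p under 0.05, with log2 fold changes between -0.69 for Col14a1 and 0.39 for Col6a3. Groups did not overlap, with anti-PD-1 higher, for 1 chain (3.45%, against 2.7% of all genes), Col17a1, which was at most 0.1 TPM there. In UV2 grafts, 0 of 29 were called (0.0147% of all genes) and 5 had an unadjusted p under 0.05. Groups did not overlap, with anti-PD-1 lower, for 5 chains (17.2%, against 7.28% of all genes): Col4a5, Col4a6, Col6a1, Col6a2 and Col11a1. None was higher without overlap (against 5.7% of all genes). Col4a5 was at 7.10, 2.86 and 3.25 TPM in UV2 anti-PD-1 and at 27.3, 7.15 and 15.6 TPM in UV2 isotype, where the closest libraries nearly met (log2 fold change -1.61 ± 0.61, limma adjusted p = 0.542). Col6a1 was at 485, 418 and 344 TPM in UV2 anti-PD-1 and at 951, 532 and 792 TPM in UV2 isotype (-0.84 ± 0.31, adjusted p = 0.542), and Col6a2 at 352, 359 and 258 TPM against 628, 378 and 534 TPM (-0.65 ± 0.30, adjusted p = 0.549). Col11a1, a minor fibrillar chain best known in cartilage, had a log2 fold change of -1.18 ± 0.51 (adjusted p = 0.542). The difference between the lines in their response to anti-PD-1 was tested directly, and 0 of 29 chains passed (0.0% of all genes, with 0 chains and 404 genes at an unadjusted p under 0.05). The largest differences, anti-PD-1 effect in UV2 minus that in parental grafts, were those of Col14a1 (2.08 ± 1.499), Col4a5 (-1.81 ± 0.87) and Col4a6 (-1.61 ± 0.81), each with a limma adjusted p of 0.8. A p that misses the threshold does not show that the responses were alike.

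In parental grafts, triple therapy set against isotype antibody asks what the combination does. The epidermal Col17a1 (log2 fold change 3.80) and Col7a1 (2.46) and the type I chains Col1a1 (2.12) and Col1a2 (2.05) had the largest positive values, but no chain passed the test over all genes (0 of 29, against 0.0221% of all genes), and 8 had an unadjusted p under 0.05. The groups did not overlap, with triple therapy higher, for 9 of 29 chains (31.0%), against 12.7% of all genes: Col1a1, Col1a2, Col3a1, Col5a1 and Col24a1 among the fibrillar chains, both epidermal chains, the fibril-associated Col12a1 and the transmembrane Col23a1. None was lower without overlap (against 3.39% of all genes). Col17a1 passed the expression filter only because it was high in those libraries, so its separation was partly fixed by the filter. The median log2 fold change was 0.56 over the 29 chains, 1.01 over the 9 fibrillar chains and -0.05 over the 6 basement membrane chains, against 0.12 over all genes. The basement membrane median ran from -0.401 without parental isotype library 3 to 0.22 without parental isotype library 2. All 9 fibrillar values were above 0 on TPM, and 8 of 9 after median-of-ratios scaling or quantile normalization, where Col27a1 turned below 0.

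Col1a1 was at 8288, 1559.8 and 3387 TPM in triple therapy and at 817, 894 and 722 TPM in parental isotype. The lowest triple therapy library lay above every isotype library (log2 fold change 2.12 ± 0.82, limma adjusted p = 0.347). Col1a2 was at 7768, 1317 and 3346 TPM against 783, 850 and 729 TPM (2.05 ± 0.85, adjusted p = 0.36), and so kept step with its type I partner. Col3a1 was at 9042, 1731 and 3604 TPM in triple therapy and at 1581, 1588 and 1637 TPM in parental isotype (1.26 ± 0.68, adjusted p = 0.457), and library 2 was only just above the isotype libraries. Col5a1, which nucleates fibrils, was at 548, 211 and 304 TPM in triple therapy and at 184, 196 and 119 TPM in parental isotype (1.01 ± 0.49, limma adjusted p = 0.419). Col5a2, which had 749, 314 and 426 TPM in triple therapy and 348, 372 and 203 TPM in parental isotype, overlapped. Col12a1 was at 240.2, 110.3 and 195 TPM in triple therapy and at 62.1, 82.3 and 22.8 TPM in parental isotype, again with no overlap (1.80 ± 0.64, adjusted p = 0.339). Col14a1 was at 108, 7.77 and 34.9 TPM against 7.55, 5.12 and 9.69 TPM and overlapped through library 2 (1.98 ± 1.06). The 10 fibroblast markers summed to 4446, 2094 and 2911 TPM in triple therapy and to 1485 to 1574 TPM in parental isotype, with none at 0. Triple therapy libraries stood in the same order for these markers as for Col1a1, an order that most of the other marker lists shared. Other marker sums were also higher without overlap: pericyte and smooth muscle markers summed to 275 to 762 TPM in triple therapy and 205 to 250 TPM in parental isotype, macrophage markers to 756 to 1373 TPM against 507 to 605 TPM, and Schwann cell and nerve markers to 13.98 to 60.4 TPM against 9.07 to 12.1 TPM. The cartilage and bone sum was lower without overlap, at 19.97 to 74.5 TPM in triple therapy against 95.8 to 262 TPM in parental isotype. The part of any of these cells in the collagen values was not tested.

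Col7a1, which forms the anchoring fibrils under the epidermis, was at 81.6, 31.2 and 43.9 TPM in triple therapy and at 9.73, 12.5 and 3.97 TPM in parental isotype. All triple therapy libraries were higher (log2 fold change 2.46 ± 0.58, limma adjusted p = 0.285). Col17a1, the transmembrane collagen of hemidesmosomes in basal keratinocytes, was at 106, 1.09 and 11.7 TPM in triple therapy and at 0, 0.05 and 0 TPM in parental isotype (3.80 ± 0.99, adjusted p = 0.313). Its 3 triple therapy libraries differed widely from each other. They stood in the same order as the keratinocyte markers: Krt14 was at 11620.4, 85.7 and 845 TPM in triple therapy and between 0 and 0.63 TPM in parental isotype. Marker sums of fibroblasts, pericytes and smooth muscle, endothelium, adipocytes, macrophages, skeletal muscle and the melanocyte lineage had this order too. Only the Schwann cell and nerve sum and the cartilage and bone sum did not. The order is therefore not particular to keratinocytes. Of the 10 keratinocyte markers none was at 0 in triple therapy, while 4 to 6 were at 0 in each parental isotype library. Col17a1 was also at 3.06 TPM in UV2 anti-PD-1 library 3, where keratinocyte markers summed to 352 TPM, and at most 0.21 TPM in the remaining libraries. Col7a1 did not follow in that library (6.47 TPM, against 4.11 and 10.5 TPM in the other UV2 anti-PD-1 libraries). The part of epidermal tissue in these values was not tested.

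**Figure D5:**
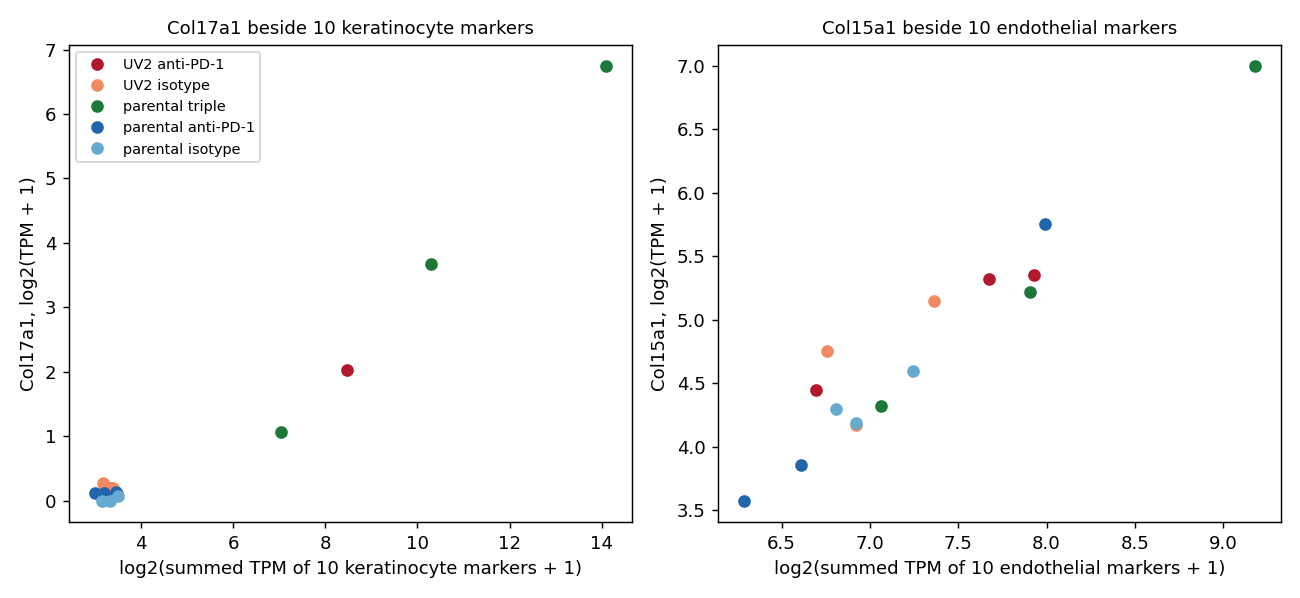
Each point is a library: Col17a1 against the summed 10 keratinocyte markers (left) and Col15a1 against the summed 10 endothelial markers (right), all as log2(TPM + 1), coloured by group. Col17a1 leaves the floor only in the 3 triple therapy libraries and in UV2 anti-PD-1 library 3, and Col15a1 is highest, at 127 TPM, in triple therapy library 1, where endothelial markers sum to 579 TPM.

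The basement membrane chains had values on either side of 0 under triple therapy. Their median moved with the parental isotype libraries, as given above, and the values also depended on triple therapy library 1. Without it, the log2 fold changes were 0.13 for Col4a5, 0.1 for Col4a6, 0.02 for Col4a1, 0.05 for Col4a2, 0.41 for Col15a1 and -0.185 for Col18a1. Col4a1 was at 352, 174 and 182 TPM in triple therapy and at 216, 241 and 105 TPM in parental isotype (log2 fold change 0.34 ± 0.40), and Col4a2 at 236, 119.7 and 129 TPM against 143, 159 and 75.96 TPM (0.36 ± 0.41). Col4a5 was at 5.97, 27.7 and 22.8 TPM against 29.75, 39.2 and 9.98 TPM (-0.50 ± 0.61), lowest in the library where Col4a1 was highest. Col18a1 was at 276, 552 and 405 TPM in triple therapy and at 638, 717 and 340 TPM in parental isotype (-0.44 ± 0.38). Col15a1 was at 126.6, 19.1 and 36.2 TPM against 18.7, 17.2 and 23.2 TPM (1.15 ± 0.63, limma adjusted p = 0.469), and endothelial markers summed to 578.8, 132.8 and 238.5 TPM in triple therapy and to 110.9 to 150.4 TPM in parental isotype.

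Against parental anti-PD-1, which shares the triple therapy libraries with the comparison above, triple therapy again had no called chain (0 of 29, 0.0% of all genes), and 9 chains had an unadjusted p under 0.05. The groups did not overlap, with triple therapy higher, for 5 chains (17.2%, against 7.3% of all genes), Col6a1, Col6a2, Col7a1, Col12a1 and Col17a1, and with triple therapy lower for 1 chain, Col18a1 (3.45%, against 5.01%). Col7a1 was at 81.6, 31.2 and 43.9 TPM in triple therapy and at 17.7, 4.33 and 13.9 TPM in parental anti-PD-1 (log2 fold change 2.11 ± 0.58, limma adjusted p = 0.377). Col1a1 and Col1a2 overlapped here, with parental anti-PD-1 library 1 at 2337 and 1960 TPM. The largest values were those of Col17a1 (3.71 ± 0.99), Col14a1 (2.67 ± 1.06) and Col1a2 (2.42 ± 0.85). Triple therapy library 1 weighed heavily. Without it the log2 fold change against isotype was 1.51 for Col1a1, 1.42 for Col1a2, 0.64 for Col3a1, 2.09 for Col7a1 and 2.34 for Col17a1, and the fibrillar median was 0.64. Without library 2, Col17a1 had a value of 5.18 with a limma adjusted p of 0.00778, which is no independent test, since the triple therapy libraries carried it over the expression filter. The fibrillar median was then 1.32.

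The machinery that makes, crosslinks and reads collagen was followed with lists of genes. In UV2 against parental grafts over both treatments, 9 of 18 tested genes of collagen hydroxylation, folding and secretion were lower and 0 higher (50% called, against 33.0% of all genes, of which 19.6% were lower and 13.4% higher). The median log2 fold change was -0.47, against -0.12 over all genes. The lowest p-values were those of Leprel4, a partner of lysyl hydroxylase in the endoplasmic reticulum (-0.82 ± 0.13, limma adjusted p = 0.00185), Plod1, a lysyl hydroxylase (-0.79 ± 0.15, adjusted p = 0.00366), Leprel1, a collagen prolyl hydroxylase (-1.70 ± 0.37, adjusted p = 0.00586), and P4hb, a subunit of another prolyl hydroxylase (-0.42 ± 0.11, adjusted p = 0.013). Leprel4 was at 45.3, 53.7 and 35.7 TPM in UV2 anti-PD-1 and 68.8, 46.03 and 58.5 TPM in UV2 isotype, against 79.98, 88.95 and 89.3 TPM in parental anti-PD-1 and 99.6, 96.9 and 85.5 TPM in parental isotype. No UV2 library reached a parental one. Leaving out a library gave 6 to 10 calls. Of 17 tested basement membrane partners, 8 were lower and 0 higher (47.1% called, against 33.0% of all genes; median -1.07), among them Lama5 (-2.045 ± 0.47, adjusted p = 0.00794), Lamb1 (-1.07 ± 0.26, adjusted p = 0.0109) and Lamc1 (-1.48 ± 0.37, adjusted p = 0.0112), the chains of a major laminin, and Itga6, an integrin chain that binds it (-2.22 ± 0.55, adjusted p = 0.0108). Lama5 was at 23.9, 14.8 and 6.60 TPM in UV2 anti-PD-1 and at 107, 55.1 and 129.8 TPM in parental anti-PD-1, without overlap. Its log2 fold change was -2.69 under anti-PD-1 and -1.40 under isotype, where it was called under only 1 of 16 alternatives. Leaving out a library gave 4 to 9 calls, with 4 without UV2 anti-PD-1 library 3, UV2 isotype library 2, parental anti-PD-1 library 1 or 3, or parental isotype library 1 or 2. Of 12 genes of processing and crosslinking, 4 were lower and 0 higher (33.3% called, the share over all genes being 33.0%), led by Loxl4, a lysyl oxidase-like crosslinking enzyme (-1.59 ± 0.23, limma adjusted p = 0.00136), and Pcolce, an enhancer of procollagen trimming (-0.41 ± 0.11, adjusted p = 0.0176), which lost its call after median-of-ratios scaling (-0.24). Loxl2 (-0.98) and Pcolce2 (-0.87) were the least stable of the 4, each called under 13 of 21 alternatives. Leaving out a library gave 2 to 6 calls in this list, with 2 without parental anti-PD-1 library 3 or parental isotype library 1 or 2.

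Among 9 tested collagen receptors, 3 were lower in UV2 grafts and 1 higher over both treatments (44.4% called, against 33.0% of all genes). The higher gene was Lair1, an inhibitory collagen receptor of immune cells, at 73.8, 34.6 and 81.9 TPM in UV2 anti-PD-1 and 33.9, 60 and 69.4 TPM in UV2 isotype, against 23.5, 30.5 and 18 TPM in parental anti-PD-1 and 23.5, 22.1 and 23.1 TPM in parental isotype. Every UV2 library was above every parental one (log2 fold change 1.23 ± 0.22, limma adjusted p = 0.00292). The lower genes were Itga10, a collagen-binding integrin chain (-2.38 ± 0.48, adjusted p = 0.00463), Ddr2, a receptor kinase for fibrillar collagen (-1.07 ± 0.31, adjusted p = 0.0202), and Itgb1, the shared beta chain of collagen-binding integrins (-0.60 ± 0.205, adjusted p = 0.0406). The list had 8 calls without parental isotype library 3, and 2 without UV2 anti-PD-1 library 3, UV2 isotype library 2, parental anti-PD-1 library 3 or parental isotype library 1 or 2, while Lair1 and Itga10 were called under all 21 alternatives. Of 11 fibril-binding proteoglycans and matricellular genes, 3 were higher and 0 lower (27.3% called, against 33.0% of all genes, and 13.4% higher): Lum, lumican (1.19 ± 0.25, limma adjusted p = 0.00506), Postn, periostin (1.74 ± 0.39, adjusted p = 0.00716), and Aspn, asporin (1.74 ± 0.49, adjusted p = 0.019). Lum also stands in the fibroblast marker list. After median-of-ratios scaling 5 of the 11 were called and after quantile normalization 6, and leaving out a library gave 2 to 5 calls, with 5 without UV2 anti-PD-1 library 2, UV2 isotype library 3 or parental anti-PD-1 library 1 or 2. Under isotype alone, none of the genes of these lists was called by limma, with 4 genes of hydroxylation and folding, 2 of processing, 2 receptors, 4 proteoglycans and matricellular genes and 1 basement membrane partner at an unadjusted p under 0.05. Median-of-ratios scaling called 1 gene each of hydroxylation and of processing. Calls also came without UV2 isotype library 1 or parental isotype library 3 (1 gene of hydroxylation each, and 1 receptor without the UV2 library), and without triple therapy library 1, which is in neither group (2 proteoglycans and matricellular genes and 1 gene each of hydroxylation, processing and receptors). Without UV2 anti-PD-1 library 3, also in neither group, 1 gene of processing was called.

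Under triple therapy none of the 5 lists held a gene called by limma against parental isotype, with 6 proteoglycans and matricellular genes, 6 of processing, 5 basement membrane partners, 1 receptor and 1 of hydroxylation at an unadjusted p under 0.05. Without triple therapy library 2, 3 proteoglycans and matricellular genes, 2 basement membrane partners and 1 gene of processing were called. For any gene that passed the expression filter through the triple therapy libraries, such a call is no independent test. Median log2 fold changes were 1.12 for the proteoglycans and matricellular genes, 0.81 for processing and crosslinking, 0.36 for basement membrane partners, 0.07 for receptors and 0.05 for hydroxylation and folding, against 0.12 over all genes. Postn was at 2149, 355 and 942 TPM in triple therapy and at 225, 241 and 219 TPM in parental isotype, with no overlap (1.97 ± 0.55, limma adjusted p = 0.316), and Lum followed at 1.15 ± 0.35 (adjusted p = 0.32). Lamb3, a laminin chain of the epidermal basement membrane, had the lowest p-value among the basement membrane partners. Lamb3 was at 61.8, 0.62 and 8.31 TPM in triple therapy and at 0.11, 0.32 and 0.11 TPM in parental isotype (3.06 ± 0.87, limma adjusted p = 0.316). It stood highest in library 1 and lowest in library 2, the order of the keratinocyte markers and of most other marker lists. No parental isotype library reached 1 TPM for Lamb3, so its passing of the expression filter may rest on triple therapy libraries 1 and 3. Its separation may then be partly fixed by the filter. In processing and crosslinking, Tll1 (1.18 ± 0.34, adjusted p = 0.317) and Adamts2 (1.415 ± 0.53, adjusted p = 0.341), proteinases that trim procollagen ends, came first, among receptors Itga11, an integrin chain of fibroblasts that binds collagen (2.22 ± 0.82, adjusted p = 0.339), and in hydroxylation and folding Creb3l1, a transcription factor of secretory cells (1.96 ± 0.83, adjusted p = 0.364).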

How the data were processed

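Each deposited value is a TPM per gene and library, computed by the authors; Bowtie2, RSEM and the builds mm10 and GRCm38 are listed in the submitters' processing notes, with no version of either tool. Columns sum to 1000000, so read depth is unknown, no counting interval is given, and a value listed at 0 may be a failed estimate. All 15 columns were used (0 unused). Genes with at least 1 TPM in at least 3 libraries were fitted on log2(TPM + 1) with limma 3.58.1 in R 4.3.3 (a coefficient per group, eBayes with trend and robust), two-sided, adjusted by Benjamini-Hochberg over all 13592 genes and called under 0.05. Fold changes on this scale understate those of low genes. The fit was tested on simulated data.

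Chosen for description were a fixed set of chains, every called chain and the 3 chains of largest change per comparison. Of pathway lists, up to 4 called genes of smallest p were chosen, or 2 where none was called. Values are not printed for every library of every chosen gene. Of the genes so chosen, 1 is not reported here. Members and lists were chosen with earlier results of these data known. Replicate numbers did not pair libraries (30 pairs, r from -0.542 to 0.47, 10 over 0.1). Alternatives were another pseudocount, filters, scalings, compared groups alone, a replicate block, library weights and leaving out each library.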

Additional observations from a re-analysis of the deposited data

How the results depend on the processing

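Pseudocount 0.1, a minimum of 5 TPM, both scalings and the compared groups alone left each count of called chains within 1.5 times its value. Without a filter, 3 chains were called in UV2 against parental anti-PD-1 in place of 6. Library weights, whose estimation did not converge, called 5 chains in UV2 against parental isotype, 19 under anti-PD-1, 18 in the mean of both, 1 in parental anti-PD-1 against isotype, 8 in UV2 anti-PD-1 against isotype, 20 in triple therapy against isotype, 16 in triple therapy against anti-PD-1 and 4 in the difference of anti-PD-1 effects. Under these weights Col4a1 (-0.23), Col6a1 (-0.19) and Col16a1 (-0.25) turned below 0 in triple therapy against isotype; the cause was not tested. Leaving out a library gave 0 to 7 called chains in UV2 against parental anti-PD-1, 2 to 10 in the mean, and 0 to 1 in triple therapy against either other parental group. Leaving out triple therapy library 1 or UV2 anti-PD-1 library 3 from comparisons that do not hold them was chosen after seeing the data. With the replicate number as a block, 5 chains were called under anti-PD-1 (1 higher, 4 lower) and 7 in the mean, and 0 elsewhere; the samples share only a number. Read depth is unknown, so the precision of low chains such as Col9a3 and Col28a1 cannot be given.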
